A study of Mus musculus with 6 samples.

Results

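A group of 10 genes that restrain or report signalling through the ERK branch of the mitogen-activated protein kinase (MAPK) pathway was followed in a mouse mammary tumour line and in its metastasis-selected derivative. They are the phosphatase genes Dusp1, Dusp4, Dusp5 and Dusp6, the Sprouty genes Spry1, Spry2 and Spry4, the related gene Spred1, and the ETS transcription factor genes Etv4 and Etv5. They were chosen by name, and each is represented by its brightest probe set, judged by log2(signal + 50) averaged over all arrays, among probe sets that carry that symbol alone. All 10 were found, among 18193 genes with such a probe set. All 10 also had a mean signal of at least 100 and so stood among the 9361 genes tested.

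E0771 is a mammary tumour line from C57BL/6 mice. Parental cells were unselected, and E0771-HML2 is a population recovered from the lung after injection into the mammary fat pad of syngeneic mice, with the passage through the animal repeated. Each group had 3 cultures, called biological replicates in the labels, grown for 3 days in medium with 10% serum and hybridised to 1 Affymetrix Mouse Genome 430 2.0 array each. The labels do not say how many animals gave rise to the HML2 cultures, and the p-values reflect only how much the cultures varied. The labels name no engineered allele or drug for either group, and the values describe cells in culture, not tumours.

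As background, growth factor receptors activate RAS, which activates the kinases RAF, MEK and ERK in turn. ERK signalling switches on its own inhibitors. The DUSP phosphatases remove the activating phosphates from MAP kinases, Sprouty and SPRED proteins act near the receptor, RAS and RAF, and the ETS factors ETV4 and ETV5 are transcription factors whose genes are widely used, with Dusp6, Spry2 and Spry4, as readouts of ERK output. Several of these genes are induced within a short time of pathway activation, but phosphorylated ERK itself was not measured here.

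The promoters of 3 of the phosphatase genes are shown because these genes gave different test results in HML2 cells: Dusp1 fell, Dusp5 rose and Dusp6 did not pass the test. Each line gives the 250 bases before the transcription start from the RefSeq promoter table, build GRCm38.p6, 5′ to 3′ on the strand of the gene. Capitals mark a cyclic AMP response element (CRE, TGACGTCA) in Dusp1, a pair of adjacent CArG boxes, the site of serum response factor, in Dusp5, and a Capicua motif on the opposite strand in Dusp6. The windows are chr17:26508473-26508722 on the minus strand for Dusp1, chr19:53528895-53529144 on the plus strand for Dusp5 and chr10:99262981-99263230 on the plus strand for Dusp6.
Dusp1: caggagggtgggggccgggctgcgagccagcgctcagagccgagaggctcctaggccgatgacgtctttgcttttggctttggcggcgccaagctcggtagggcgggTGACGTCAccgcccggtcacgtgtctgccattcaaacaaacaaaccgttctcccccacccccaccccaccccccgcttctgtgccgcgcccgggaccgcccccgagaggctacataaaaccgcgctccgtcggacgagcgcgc
Dusp5: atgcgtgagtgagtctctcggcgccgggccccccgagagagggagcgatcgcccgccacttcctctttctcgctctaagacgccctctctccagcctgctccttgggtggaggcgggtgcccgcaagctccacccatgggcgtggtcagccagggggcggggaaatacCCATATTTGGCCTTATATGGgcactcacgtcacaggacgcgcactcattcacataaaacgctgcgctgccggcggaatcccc
Dusp6: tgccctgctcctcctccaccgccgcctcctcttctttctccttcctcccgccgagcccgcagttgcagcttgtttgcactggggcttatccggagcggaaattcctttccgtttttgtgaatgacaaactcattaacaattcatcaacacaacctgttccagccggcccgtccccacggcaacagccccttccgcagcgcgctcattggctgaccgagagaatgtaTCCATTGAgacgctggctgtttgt

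Motifs were searched on both strands in the 250-base windows of the 7 genes that the table holds, 8 windows in all because Etv5 has a pair of starts. Dusp4, Spry4 and Etv4 were not matched. A CRE stood 143 to 136 bases before the start of Dusp1 and in 1.55% of all 32851 windows. The CArG boxes of Dusp5 lay 82 to 73 and 72 to 63 bases before its start, and 1.47% of all windows held such a box. The Capicua motif (TGAATGNA or TCAATGNA) stood 24 to 17 bases before the start of Dusp6 and 54 to 47 bases before that of Spry2, against 5.03% of all windows. The ETS motif CCGGAAG and the AP-1 motif TGANTCA were found in 0 of the 8 windows and in 6.91% and 6.75% of all windows. A match describes the letters and not binding.

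In HML2 cells Dusp5 and Etv4 rose and Dusp1 fell, and the other 7 genes did not pass the test (limma, Benjamini-Hochberg adjusted p below 0.05). Among all genes tested 27.2% were called, 12.3% as higher and 14.9% as lower. The 3 of 10 called here are near that share, so the count is not a result about these genes as a group. The median difference over the 10 genes was -0.02, and over all genes tested it was also -0.02. Groups did not overlap for the 3 called genes and overlapped for the other 7, whereas 44.4% of all genes tested had groups that did not overlap. Dusp5 and Etv4 had parental means below 100 and reached the signal filter only through the HML2 arrays.

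**Figure D1:**
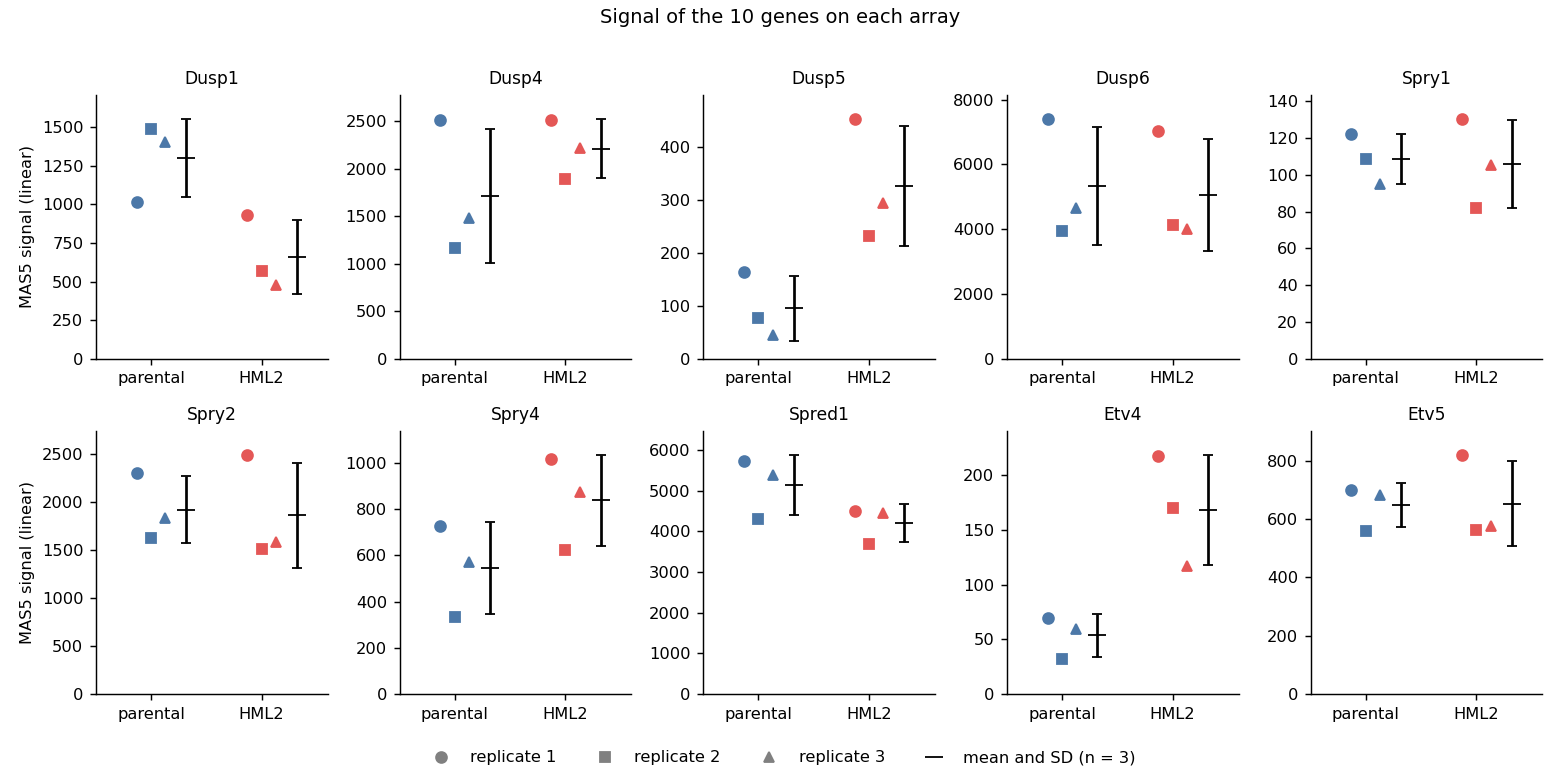
Deposited MAS5 signal (linear axis from 0, its own scale in each panel) of the 10 genes in 3 parental and 3 HML2 cultures. Each point is 1 array, its shape gives the replicate number, and the bar is the mean with its SD. HML2 points lie above all parental points for Dusp5 and Etv4 and below them for Dusp1.

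Among the phosphatases, Dusp5 encodes a nuclear phosphatase that acts on ERK. Its signals were 163, 76.2 and 44.3 on parental replicates 1, 2 and 3 and 453, 232 and 294 on HML2 replicates 1, 2 and 3. Every HML2 array lay above every parental array, and replicate 1 was the highest in both groups. The mean went from 94.7 ± 61.7 to 326 ± 114 (SD, n = 3), a difference of 1.42 ± 0.33 (SE) on the log2(signal + 50) scale with an adjusted p = 0.014 (limma). That scale, on which all differences here are given, corresponds to 2.68-fold and understates the change of genes with low signals. Without parental replicate 3 the difference was 1.15 and the call was lost (limma adjusted p = 0.057).

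Dusp1, an immediate early gene whose product acts on p38 and JNK as well as ERK, went the other way. Its parental signals were 1017, 1487 and 1403, and its HML2 signals were 932, 566 and 475, in the order of replicates 1 to 3. The groups did not overlap, but parental replicate 1 and HML2 replicate 1 lay close to each other. The mean went from 1302.5 ± 251 to 658 ± 242 (SD, n = 3), and the difference was -0.97 ± 0.25 (SE; limma adjusted p = 0.021). Within replicate numbers the difference was -0.12 for number 1, -1.32 for number 2 and -1.47 for number 3. The call was lost without parental replicate 2 (-0.87), parental replicate 3 (-0.91), HML2 replicate 2 (-0.89) or HML2 replicate 3 (-0.78), and without HML2 replicate 1 the difference was -1.23 (limma adjusted p = 8.5e-04).

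Dusp6, the cytoplasmic phosphatase specific for ERK, had signals of 7393, 3947 and 4642 on the parental arrays. On the HML2 arrays they were 7036, 4124 and 3999.7. In each group replicate 1 stood well above the other arrays, which lay close together across the groups. The difference was -0.07, with a 95% interval of -0.70 to 0.55 (limma adjusted p = 0.87). The interval leaves room for a rise or a fall, so the arrays do not show that Dusp6 was equal in the groups.

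Dusp4, an inducible nuclear phosphatase, had parental signals of 2510, 1160 and 1478. Its HML2 signals were 2515, 1894 and 2221, so that parental replicate 1 reached the HML2 range and the other parental arrays did not. The difference was 0.42 ± 0.26 (SE; limma adjusted p = 0.26), with an interval of -0.16 to 1.00. Without parental replicate 1 it was 0.72 and passed the test (limma adjusted p = 0.031).

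Of the Sprouty genes, whose products block growth factor signals to RAS and RAF, Spry4 showed the largest difference. Its signals were 727, 333 and 572 in parental cells and 1015, 624 and 874 in HML2 cells. The HML2 array was above the parental array of the same number in all 3 pairs, by 0.46, 0.81 and 0.57, while parental replicate 1 was above HML2 replicate 2. The difference of 0.61 ± 0.27 (SE) did not pass the test (limma adjusted p = 0.13), but did with the replicate number as a block (limma adjusted p = 0.0100). Spry4 had 4 probe sets, of which 3 passed the filter. The other 2 gave 0.43 and -0.01, and neither was called in a fit over all 16412 probe sets that passed (limma adjusted p = 0.18 and 0.97), in which 25.4% of probe sets were called.

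Spry2, a widely expressed Sprouty, had signals of 2298, 1619 and 1826 in parental cells and 2489, 1503 and 1577 in HML2 cells. The groups overlapped fully, and replicate 1 was the highest in each. The difference was -0.07, with a 95% interval of -0.55 to 0.42 (limma adjusted p = 0.85). Spry1 was dim. Its signals of 122, 109 and 94.7 in parental and 130, 82.1 and 105 in HML2 cells lay just around the filter of 100. Its difference was -0.03 with an interval of -0.48 to 0.42 (limma adjusted p = 0.92).

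Spred1, a membrane-associated inhibitor of RAS to RAF signalling that works with neurofibromin, had parental signals of 5733, 4310 and 5390. The HML2 signals were 4505, 3679 and 4453, and the HML2 array was below the parental array of its number in all 3 pairs. The difference was small, -0.28 ± 0.14 (SE), and was not called without the block (limma adjusted p = 0.18) but was with it (limma adjusted p = 0.035). Of the 8 Spred1 probe sets 6 passed the filter, with differences from -0.45 to 0.01. Across those probe sets the lowest adjusted p was 0.077 (limma).

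With the block, 5 of the 10 genes were called (Dusp5, Etv4 and Spry4 higher, Dusp1 and Spred1 lower), where 37.4% of all genes were. The gains thus came with a larger background share.

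Etv4 and Etv5 encode ETS factors of the PEA3 group and are close relatives. Etv4 was called higher and Etv5 was not called, and the difference between their responses was not tested. The chosen Etv4 probe set (1443381_at) had parental signals of 69.7, 31.6 and 59.5. Its HML2 signals were 218, 170 and 117, all above the parental range. The mean went from 53.6 ± 19.7 to 168 ± 50.5 (SD, n = 3), a difference of 1.07 ± 0.25 (SE; limma adjusted p = 0.014). The call held when any 1 array was left out, with differences of 0.90 to 1.25. The filter, which Etv4 reached only through its HML2 arrays, and the probe set choice were not redone in these fits.

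The other Etv4 probe set (1423232_at) differed more. It read 7.90, 34.0 and 8.93 in parental cells and 263, 269 and 289 in HML2 cells. The parental values lie within the range of bacterial tryptophan control probe sets, 1.97 to 36.2, which gauge background, and the HML2 values lie far above it. On this probe set the mean went from 16.95 ± 14.8 to 274 ± 13.2 (SD, n = 3), and the difference was 2.29 ± 0.21 (SE) in the fit over all probe sets (limma adjusted p = 1.7e-04). Like the chosen probe set, it reached the signal filter only through its HML2 arrays. The rule chose between these probe sets on means of 7.21 and 7.19, so the size of the Etv4 difference depends on which is taken. Both read higher on every HML2 array than on any parental array.

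**Figure D2:**
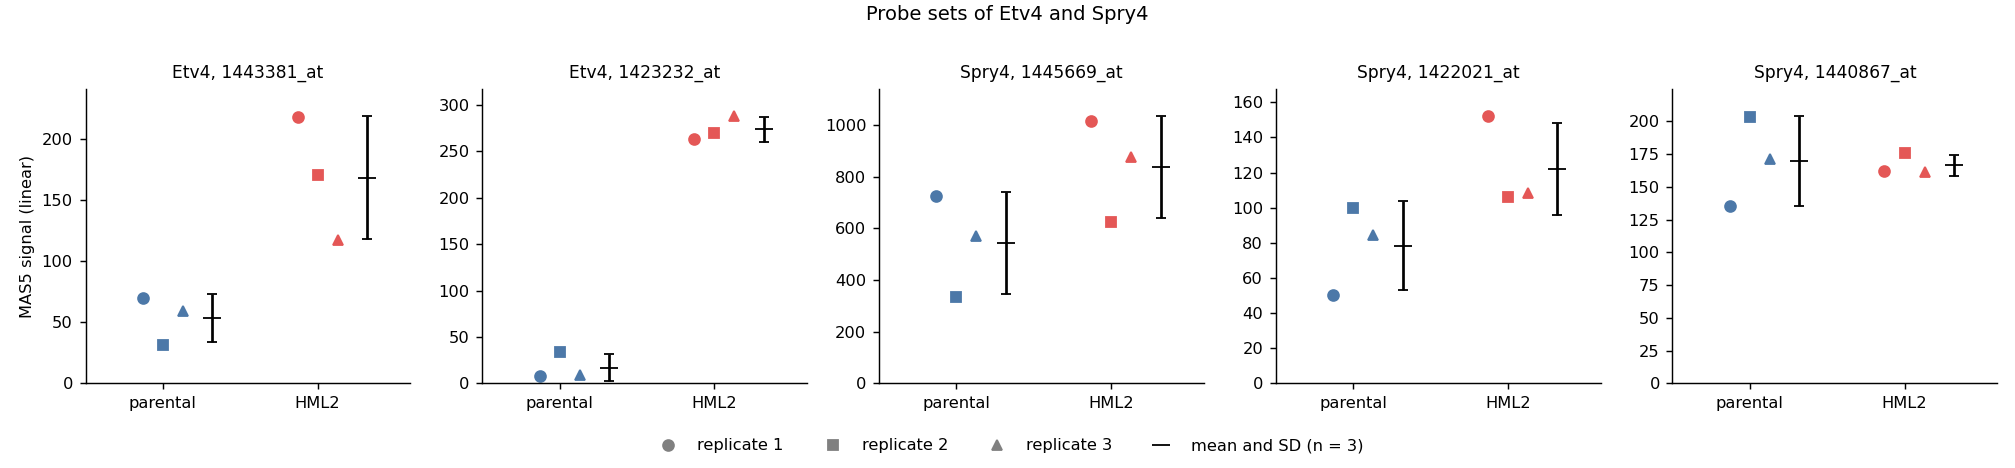
Deposited MAS5 signal (linear axis from 0, its own scale in each panel) for the 2 Etv4 probe sets and the 3 Spry4 probe sets that passed the filter, with 1 point per array and the mean with its SD. Both Etv4 probe sets are higher on all 3 HML2 arrays, whereas the Spry4 probe sets differ among themselves.

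Etv5 had signals of 700.4, 559.8 and 683 in parental cells and 821, 562 and 576 in HML2 cells. The groups overlapped, and its difference was -0.00 with an interval of -0.41 to 0.41 (limma adjusted p = 0.99). A further probe set that passed the filter gave 0.05 (limma adjusted p = 0.88). In the RefSeq gene order Etv5 lies on chromosome 16, where 5 of the 301 other genes tested were called higher and 124 lower, with a median difference of -0.42. Of the 10 tested genes nearest to Etv5, 4 were lower and 0 higher at the same threshold (limma; 0 higher at an unadjusted p below 0.05), and their median was -0.39. The Etv5 difference stood above the median of its neighbours, but its interval of -0.41 to 0.41 takes in that median. Spry1 lies on chromosome 3, where 110 of 450 other genes were higher and 39 lower, with a median of 0.21. The 10 nearest genes of the members that were called had medians of -0.17 beside Dusp1, -0.06 beside Dusp5 and 0.00 beside Etv4.

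**Figure D3:**
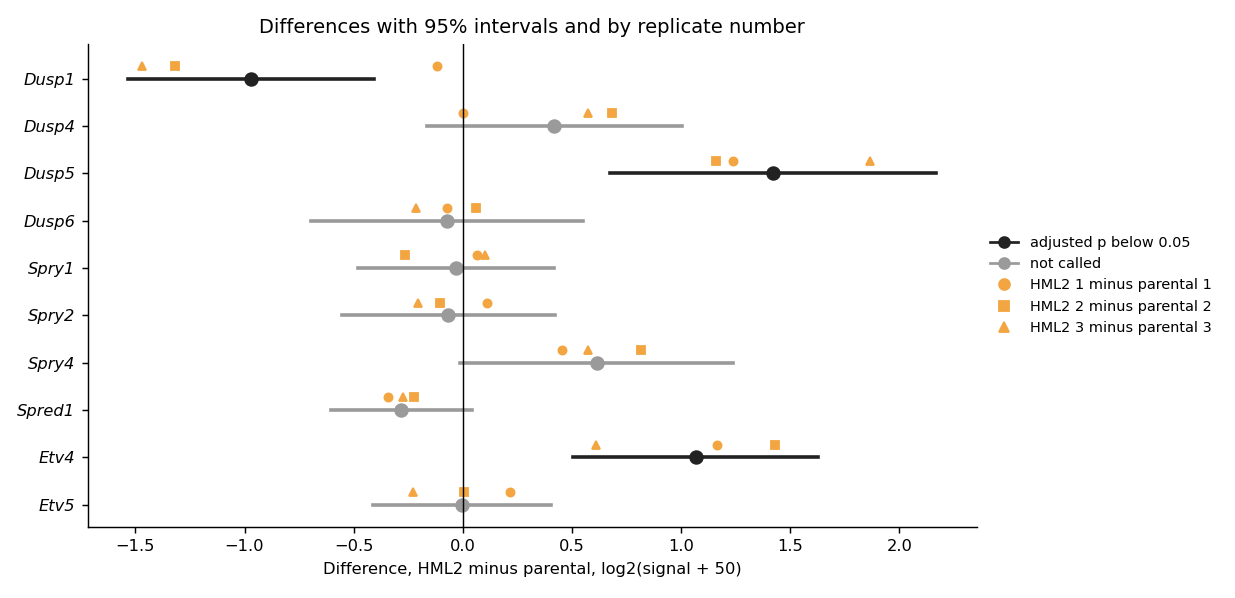
Differences between HML2 and parental cells on the log2(signal + 50) scale for the 10 genes. Circles with lines give the limma estimate and its 95% interval, black where the adjusted p was below 0.05, and small orange symbols give the difference within each replicate number. The intervals of Dusp1, Dusp5 and Etv4 leave out 0, and the 3 values of Dusp1 are spread from -1.47 to -0.12.

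The 10 genes shared a pattern that ran across the groups. Replicate 1 had the highest parental signal for 9 of them, all but Dusp1, and the highest HML2 signal for all 10. Among all genes tested the shares were 39.3% and 44.0%, and replicate 1 was the highest in both groups for 24.8%. On parental replicate 1 the 10 genes stood above the average of parental replicates 2 and 3, with a median excess of 0.37, and on HML2 replicate 1 the excess over the other HML2 arrays was 0.49, against 0.02 and 0.01 over all genes. For Dusp6 the excess was 0.78 in parental and 0.79 in HML2 cells. Dusp1 had an excess of -0.49 in parental and 0.79 in HML2 cells, and its difference within number 1 was the smallest of the 3. The labels do not say what the replicate number stands for, and other genes of the pathway showed the excess in part. It was 0.28 in parental and 0.18 in HML2 cells over 6 other receptor and RAS feedback inhibitors, of which 4 had replicate 1 highest in both groups. For 9 receptor tyrosine kinase genes it was 0.18 and 0.24, and 5 had replicate 1 highest in both groups. The excess was 0.11 and 0.43 over 9 other ERK output genes and 0.04 and 0.38 over 6 other MAPK phosphatases, and 2 genes of each had replicate 1 highest in both groups. It was 0.04 and -0.10 over 17 genes of the ERK cascade itself. Over 11 other ETS factor genes it was 0.08 and -0.08, and over 8 genes of the p38 and JNK cascade -0.10 and -0.07. Over 7 regulators of the transcription or turnover of the 10 genes it was 0.09 and -0.09.

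Other genes of the pathway were taken from lists of general knowledge, written with earlier results of these arrays known. Their counts of called genes stand beside 27.2% called among all genes tested. Chromosome positions were not looked up for these lists, and the part of shifts shared along a chromosome in their calls was not tested. Of 23 genes of the core ERK cascade 17 were tested, and 2 were higher and 3 lower, with a median of -0.08. The share called, 29.4%, was near that of all genes, so the count is not a result about this list. The small GTPase gene Nras was higher (2137 ± 191 against 3567 ± 411; 0.72 ± 0.13 SE), and all 3 of its probe sets were called higher. The adaptor gene Grb2 was higher by its brightest probe set (0.72) and not called by another that gave -0.36. The exchange factor gene Sos1 (-0.49), the phosphatase gene Ptpn11 (-0.39) and the RAS GTPase-activating gene Rasa1 (-0.40) were lower. The calls of these 3 genes were lost without parental replicate 1, parental replicate 3, HML2 replicate 2 or HML2 replicate 3, and that of Ptpn11 also without parental replicate 2, at differences from -0.53 to -0.34. A further Sos1 probe set gave 0.49 and was not called (limma adjusted p = 0.17). On the mean of a gene's probe sets Grb2 (0.18), Sos1 (-0.00) and Ptpn11 (-0.40) were not called, with a lowest limma adjusted p of 0.11. Nras (0.92) and Rasa1 (-0.42) still were called on that mean. Sos2, a relative of Sos1, had a difference of 0.68 and was called higher only with the replicate block (limma adjusted p = 0.0086, against 0.055 without it).

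Of the other MAPK phosphatases 33.3% were called, near the 27.2% of all genes, so the count is not a result about these genes. All 6 were tested, with Dusp8 higher (126 ± 37.9 against 264 ± 36.4; 0.85) and Dusp10 lower (376 ± 70.4 against 144 ± 55.5; -1.16), both phosphatases that prefer JNK and p38. Dusp8 was no longer called when parental replicate 1 (0.71) or parental replicate 2 (0.83) was left out, and a further Dusp8 probe set gave 0.56 and was not called (limma adjusted p = 0.12). The median of the 6 was -0.08. Of 7 other receptor and RAS feedback inhibitor genes 6 were tested, and 1 was called, the EGF receptor inhibitor gene Errfi1, which was higher (1386 ± 251 against 2449 ± 168; 0.81). The list had a median of 0.11, and the Spred1 relative Spred2 had a difference of -0.04 (limma adjusted p = 0.82).

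Other ETS factor genes had 2 higher and 1 lower of 11 tested, from a list of 17, with a median of 0.09. The share called, 27.3%, was near the 27.2% of all genes, so the count is not a result about this list. Ets1, which is itself regulated by ERK phosphorylation, was higher (4754 ± 735 against 8515 ± 565; 0.84 ± 0.13 SE), and all 4 of its probe sets were called higher. Etv3 was also higher (0.54), though its call was lost without any of the arrays but HML2 replicate 1, at 0.48 to 0.57. Elk4, a partner of serum response factor, was lower by its brightest probe set (-0.76), and another gave -0.01. With the mean of a gene's probe sets Elk4 was at -0.38 and not called (limma adjusted p = 0.076). Ets1 (0.99) and Etv3 (0.46) stayed called on that mean. Elk3, not called by its brightest probe set (0.11), was called lower on it (-0.59; limma adjusted p = 0.0092).

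Of 13 other ERK output genes 9 were tested, of which 5 were higher and 0 lower (limma; also 0 lower at an unadjusted p below 0.05), with a median of 1.00. The survival gene Ier3 had the largest difference among them (3588 ± 926 against 14845.5 ± 4217; 2.03), followed by the urokinase receptor gene Plaur (1.55), the EGF receptor ligand gene Hbegf (1.16), the AP-1 gene Fosl1 (1.07) and the ephrin receptor gene Epha2 (1.00). The call of Hbegf was lost without any 1 parental array (1.12 to 1.25), and its difference was 0.65 without HML2 replicate 1. That of Epha2 was lost without parental replicate 3 (0.97). With the mean of a gene's probe sets Hbegf was at 1.18 and not called (limma adjusted p = 0.053), while Ier3, Plaur, Fosl1 and Epha2 stayed called. The median of the list was 0.65 without HML2 replicate 1, where 5 were still called higher. Ccnd1 (-0.06) and Phlda1 (0.32), which stand in ERK output signatures together with several of the 10 genes, did not pass the test (limma adjusted p = 0.72 and 0.13). Myc, a growth-promoting transcription factor gene, had a difference of 0.55 and was called higher with the replicate block (limma adjusted p = 0.0072) but not without it (limma adjusted p = 0.080). The share called, 55.6%, can be set beside 27.2% of all genes, but the list was written with earlier results of these arrays known.

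Genes that act on the 10 genes or their products were tested for 7 of 7 listed, with 0 higher (limma; 0 at an unadjusted p below 0.05) and 2 lower and a median of -0.26. These were Cic, which encodes Capicua, a repressor of Etv4, Etv5, Dusp6 and Spry4 that ERK signalling relieves (525 ± 59.8 against 315 ± 47.7; -0.66 ± 0.16 SE), and Cop1, a ubiquitin ligase gene whose product promotes the breakdown of ETV proteins (9101 ± 608 against 5477.5 ± 542; -0.73 ± 0.11 SE). Cic was no longer called when parental replicate 1 (-0.58) or parental replicate 3 (-0.69) was left out. With the replicate block Det1, which encodes a partner of COP1, was called higher (0.53; limma adjusted p = 0.039, against 0.14 without the block). Without the block 28.6% of this list were called, near the 27.2% of all genes, so the count is not a result about the list. Among 8 tested genes of the p38 and JNK cascade, from a list of 10, 1 was lower, the kinase gene Mapkapk2 (-0.46), and 0 were higher (limma; 0 at an unadjusted p below 0.05). Its call was lost without any of the arrays but HML2 replicate 1, at -0.47 to -0.44.

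At the top of the pathway 9 of 11 listed receptor tyrosine kinase genes were tested, and 1 was higher and 5 lower, with a median of -0.63. The higher one was Met, and the lower ones were Egfr (-1.23), Igf1r (-1.13), Pdgfra (-1.09), Fgfr1 (-0.63) and Axl (-0.63). With the mean of a gene's probe sets Egfr was at -0.61, Igf1r at -0.83, Pdgfra at -0.57, Axl at -0.63 and Fgfr1 at -0.44. Met was at 1.03 on that mean, and of these genes Fgfr1 alone was no longer called (limma adjusted p = 0.091). The calls of Fgfr1 and Axl were lost without parental replicate 1, parental replicate 3, HML2 replicate 2 or HML2 replicate 3, and that of Axl also without parental replicate 2, at differences from -0.71 to -0.41. Pdgfrb had a difference of -1.18 with groups that overlapped, and it was called lower with the replicate block (limma adjusted p = 0.0020) but not without it (limma adjusted p = 0.053). Sos2, Myc, Det1 and Pdgfrb were the only genes of these lists whose call the block changed.

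**Figure D4:**
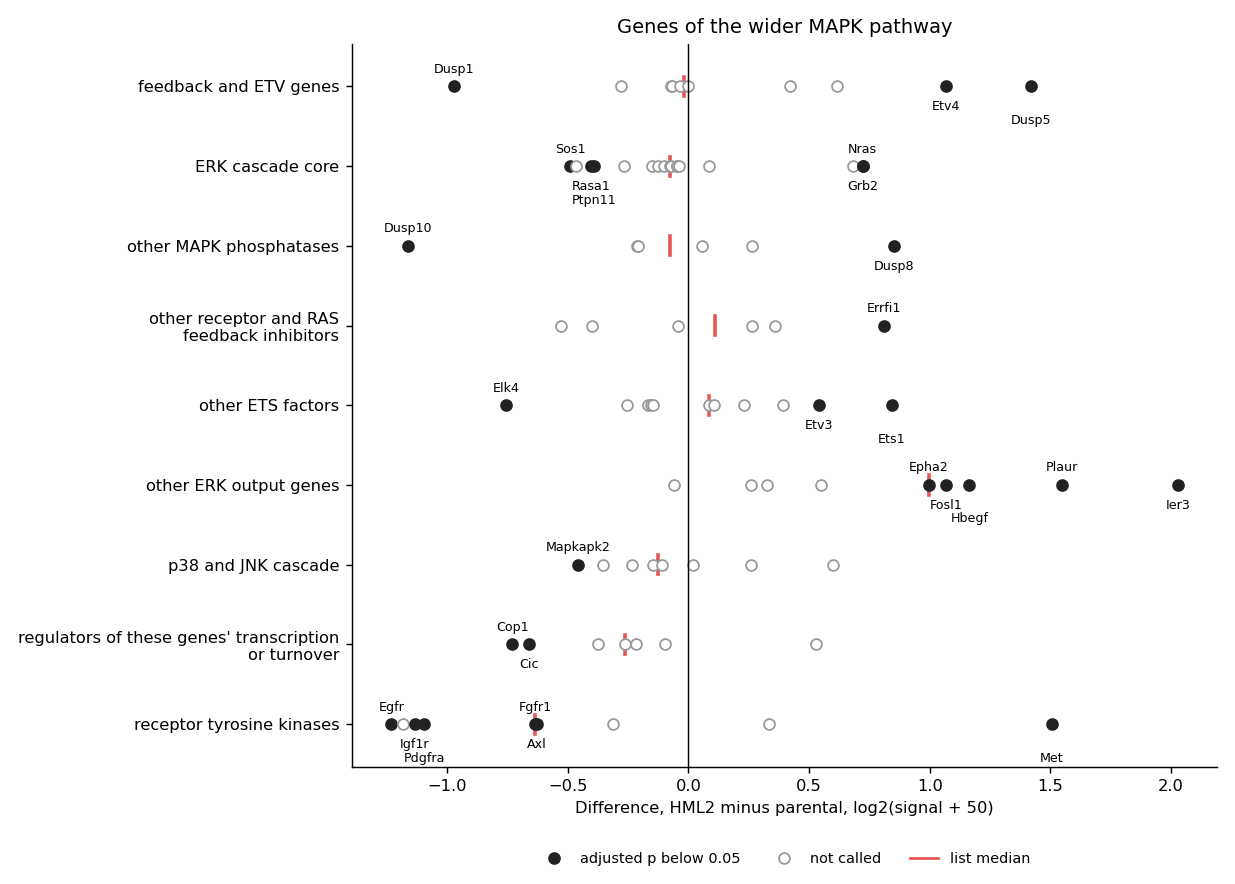
Differences between HML2 and parental cells on the log2(signal + 50) scale for the tested genes of each list, 1 point per gene, filled where the limma adjusted p was below 0.05. The red lines are list medians, from -0.63 for receptor tyrosine kinases to 1.00 for other ERK output genes, with the 10 genes described first at -0.02.

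Signals of all arrays had a common scale, with 39.7% to 41.6% of probe sets at 100 or more. Of 5 epithelial markers 2 passed the filter, and they went in opposite directions. Krt8 rose from 1095 ± 60.3 to 4175 ± 650 (SD, n = 3; 1.87, limma adjusted p = 8.1e-05), and Epcam had 133 ± 24.5 and 83.5 ± 15.0 (-0.45, limma adjusted p = 0.12) with HML2 arrays below all parental arrays. Epcam reached the filter only through the parental arrays. Krt18 was under the filter, with means of 34.2 and 86.0 and HML2 arrays above all parental arrays. Cdh1 and Krt19 had means within the range of the background controls in both groups. The epithelial markers summed to 1266 to 1355 in parental and 3782 to 5057 in HML2 cells, and most of each sum came from Krt8. Of 6 leukocyte, 4 endothelial and 5 lung epithelium markers 1, 0 and 1 passed. The leukocyte marker that passed, the lysozyme gene Lyz2, fell from 192 ± 28.9 to 78.9 ± 8.29 (SD, n = 3; -0.91, limma adjusted p = 0.0074) without overlap, whereas Ptprc, which defines leukocytes, had group means of 5.24 and 8.71, within the range of the background controls. The lung epithelium marker that passed, Sftpb, had a difference of 0.34 (limma adjusted p = 0.26), and the brightest endothelial marker, Kdr, had means of 68.6 and 53.5, under the filter. Lyz2 reached the filter only through the parental arrays, and Sftpb only through the HML2 arrays. Summed signals of these 3 lists overlapped between the groups (273 to 360.3 and 188 to 334 for leukocyte, 71.2 to 161 and 109 to 158 for endothelial, 139 to 227 and 130 to 222 for lung epithelium markers). Fibroblast and smooth muscle markers, of which 3 of 5 passed, summed to 12685 to 22918 in parental and 1513 to 2299 in HML2 cells. Most of the parental sum came from the smooth muscle actin gene Acta2, which fell from 15281 ± 6332 to 482 ± 282 (SD, n = 3; -4.88, limma adjusted p = 1.5e-04). Without Acta2 the sums were 2420 to 4449 and 1121 to 2042, with Pdgfra and Pdgfrb at the differences given above and Col1a1 and Thy1 under the filter. The ratio of 3′ to 5′ beta-actin control signals was 1.46 ± 0.06 in parental and 1.38 ± 0.01 in HML2 cells without overlap (exact two-sided permutation p = 0.1, the smallest that 3 against 3 allow). The same ratio for Gapdh was 0.80 ± 0.002 and 0.79 ± 0.02 and overlapped (exact two-sided permutation p = 0.7). The part of these shifts in the differences of Dusp1, Dusp5 and Etv4 was not tested. In such bulk RNA, fewer cells that express a gene and less of its RNA per cell cannot be told apart.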

How the data were processed

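RNA (15 ug total RNA per culture, per the labels) was labelled with biotin. The deposited table holds 1 linear intensity for each probe set on each array. MAS5 is named in the submitters' processing notes, and its version is not given in the sources read here. On every array the mean without the lowest and highest 2% of signals was 500, and such scaling removes differences in total messenger RNA. Of 45101 probe sets, 34945 had 1 symbol in the array annotation of 2016. Symbols were updated through RefSeq (assembly GRCm38.p6), which held 34741 of them.

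A value of 50 was added to each signal before log2 was taken. Probe sets whose signal averaged 100 or more were kept, and the brightest represented each gene. The contrast of HML2 minus parental was fitted in limma 3.58.1 under R 4.3.3 (eBayes with an intensity trend) without covariates, with Benjamini-Hochberg adjustment over 9361 genes. The procedure was tested on simulated data with independent noise on each array, so the correlations given next were not part of that test. Arrays with the same replicate number had correlations of deviations from their group means, across genes, of 0.45, 0.34 and 0.24, all above the bound of 0.1; the number entered as a block in an alternative. Parental replicate 2 and HML2 replicate 3 also had a correlation of 0.24. The 10 genes and all lists were chosen with earlier results of these data known. The text names the 10 genes, up to 3 called genes with the largest differences per pathway list, markers, and genes that complete small counts. Ccnd1, Phlda1, Spred2, Krt18, Cdh1, Krt19, Ptprc, Sos2, Myc, Det1, Elk3 and Pdgfrb were added after their values were seen. Precision is limited by the number of arrays.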

Additional observations from a re-analysis of the deposited data

How the results depend on the processing

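Offsets of 16 and 100, no signal filter, quantile normalization, median centring, the mean of a gene's probe sets and a fit without the intensity trend kept 2 of the 10 genes called higher and 1 lower. A filter at a mean signal of 200, which removed Etv4 and Spry1, left 1 called higher. With the replicate block 3 were called higher and 2 lower, and with array weights 4 and 2 (Dusp4, Spry4 and Spred1 were added), while over all genes array weights called 2422 higher and 2631 lower. Leaving out 1 array gave 1 to 3 higher and 0 to 1 lower of the 10 (limma; 2 to 4 and 1 to 2 at an unadjusted p below 0.05), and 590 to 1577 higher and 795 to 1845 lower over all genes. Fits without 1 array kept the filter and the probe sets chosen on all arrays. The differences of Dusp6, Spry1, Spry2 and Etv5 were close to 0 and changed sign with the array left out, ranging from -0.335 to 0.187, -0.144 to 0.080, -0.291 to 0.0702 and -0.167 to 0.0878. Spry1 was at 0.0466 with quantile normalization and 0.0114 with median centring, and Etv5 at 0.0537 and 0.0417 and at 0.0252 with the mean of its probe sets; the cause was not tested. An offset of 100 gave Etv4 a difference of 1.68, since the rule then took its other probe set. That probe set, an alternative chosen after seeing the data, gave 2.29 at the offset of 50. Signals near the background controls, such as parental Etv4, limit how far a fold change can be read.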
